A study of Homo sapiens with 24 samples.

Results

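The autophagy and lysosome genes described here are 41 genes out of 28907 gene symbols measured. They were chosen by name; the rule uses no measured value, but the list was drawn up with earlier results of these data known. They comprise 20 genes of the autophagosome machinery with its cargo receptors, and 21 genes of the lysosome and its control. All 41 were found, through 549 distinct transcripts. Each gene's level is the sum over its transcripts of TPM (a length-corrected share of a library's RNA molecules, scaled to the same total in every library).

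Total RNA was sequenced from A2780 and ES2, which are human ovarian cancer lines, in 8 groups of 3 libraries. In each line, siCtrl cells carried a control siRNA and siVRK1 cells an siRNA against the nuclear kinase VRK1. DMSO cells received the solvent, and luteolin cells the plant flavone luteolin. No dose, time or siRNA sequence is stated in the labels, and siCtrl and DMSO are separate controls, each for its own treatment. Each line is 1 established line, so what is said of a line rests on that line alone. Nothing in the labels ties the 3 libraries of a group to separate cultures; p-values here measure spread among these samples alone, and that spread may be technical. In ES2 siVRK1, 2 columns carry the same name and are called libraries a and b; the other is library 3. Throughout, values after TPM means are SD (n = 3), and values after log2 differences are standard errors. Adjusted p-values come from limma over all genes tested, two-sided, on log2(TPM + 1), a scale that understates changes of low genes; where a value is given relative to the median of all genes, its adjusted p is that of the uncentred change.

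Macroautophagy encloses cytoplasm in a double membrane, the autophagosome, and delivers it to the lysosome. The ULK1 kinase complex and a lipid kinase complex around BECN1 start the membrane, ATG conjugation enzymes attach LC3 and GABARAP proteins to it, and receptors such as SQSTM1 (p62) tether cargo to those proteins. Lysosomes are acidified by the vacuolar proton pump (V-ATPase) and filled with cathepsins and glycosidases. The transcription factors TFEB and TFE3 bind an E-box-like motif, known as the CLEAR element, in the promoters of many lysosomal genes. A transcript level says nothing by itself about autophagic flux.

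Groups were read from the sample titles, because the cell line and treatment labels count up from sample to sample. The siRNA target checked the siCtrl and siVRK1 groups alone, and does not bear on the DMSO and luteolin groups. VRK1 measured 54.4 ± 0.788 TPM in A2780 siCtrl and 9.57 ± 1.68 in A2780 siVRK1, and 64.6 ± 2.17 and 3.73 ± 0.703 in the matching ES2 groups. Each library had 11792 to 12862 genes at or above 1 TPM, and the read depth is unknown. Transcripts that GENCODE classes as retained intron held 3.38% of TPM in A2780 DMSO and 5.23% in A2780 luteolin, against 4.33% and 4.53% in ES2. Mitochondrial mRNAs held 7.10% and 10.5% in the same A2780 groups, and 4.57% and 7.78% in ES2. Of 8 ovarian carcinoma and epithelial markers, 3 reached 1 TPM in A2780 and 4 in ES2, with sums of 5.50 to 12.1 TPM and 252 to 636 TPM. Leukocyte markers summed to at most 2.17 TPM in any library. Fibroblast markers summed to 18.3 to 24.6 TPM in A2780 and 15.9 to 133 TPM in ES2. Endothelial markers reached at most 1.65 TPM in A2780 and 9.59 to 39.8 TPM in ES2, and erythroid markers at most 4.95 TPM. Some of them differed between the ES2 groups. COL1A1, a fibroblast collagen, had means of 115.1 TPM in DMSO and 12.96 with luteolin, and 84.6 in siCtrl and 53.4 in siVRK1. The other fibroblast markers had ES2 group means of at most 4.59 TPM and did not all move that way. DCN was higher with luteolin (0.613 in DMSO and 0.950) and in siVRK1 (0.220 in siCtrl and 0.987). COL1A2 was higher with luteolin (0.0733 and 0.144), while PDGFRA (4.59 and 3.61) and PDGFRB (0.153 and 0.0294) were lower. CDH5, an endothelial cadherin, had 37.8 TPM in DMSO and 8.86 with luteolin. The other endothelial markers had ES2 group means of at most 1.12 TPM, and PECAM1 was higher with luteolin (0.377 in DMSO and 1.12). KRT18, an epithelial keratin, had 419 TPM in DMSO and 207 with luteolin, and 531 in siCtrl and 262 in siVRK1. The part of these markers in the ES2 results was not tested.

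Luteolin raised most of these genes in A2780 and a smaller number in ES2, whereas the VRK1 siRNA lowered more than it raised in ES2. In A2780 luteolin against DMSO, 28 of 41 genes rose and 3 fell; over all genes tested, 45.6% rose and 19.9% fell. In ES2 luteolin, 13 of 40 rose and 8 fell, with a background of 22.6% and 25.8%. In A2780 siVRK1, 5 of 41 rose and 7 fell, against 13.8% and 27% of all genes. In ES2 siVRK1, 7 of 40 rose and 17 fell, against 26.8% and 28%. TFEB was the gene missing from the ES2 tests, because it did not reach 1 TPM in 3 libraries there. In bulk RNA, a change in the number of cells in a state and a change in RNA per cell cannot be told apart.

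The scaling of the libraries bears on the A2780 counts. The median of all genes tested stood at 0.22 (log2) in A2780 luteolin, against 0.39 for the 41 genes. Luteolin values in A2780 are therefore given as log2 changes relative to that median. Median-of-ratios scaling, which sets the typical gene at no change, gave 22 higher and 8 lower, with backgrounds of 32.5% and 32.5%. The same scaling gave 9 higher and 6 lower in A2780 siVRK1, with backgrounds of 20.7% and 20.4%. The gene medians in the other treatment comparisons were -0.03 against -0.08 over all genes in A2780 siVRK1, -0.12 against -0.0022 in ES2 siVRK1, and 0.04 against -0.0033 in ES2 luteolin. Quantile normalization ended further calls: GABARAP and ATG14 in A2780 luteolin, WIPI2 in ES2 luteolin, CTSD and CTSZ in ES2 siVRK1, and ATP6V1D in A2780 siVRK1.

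**Figure D1:**
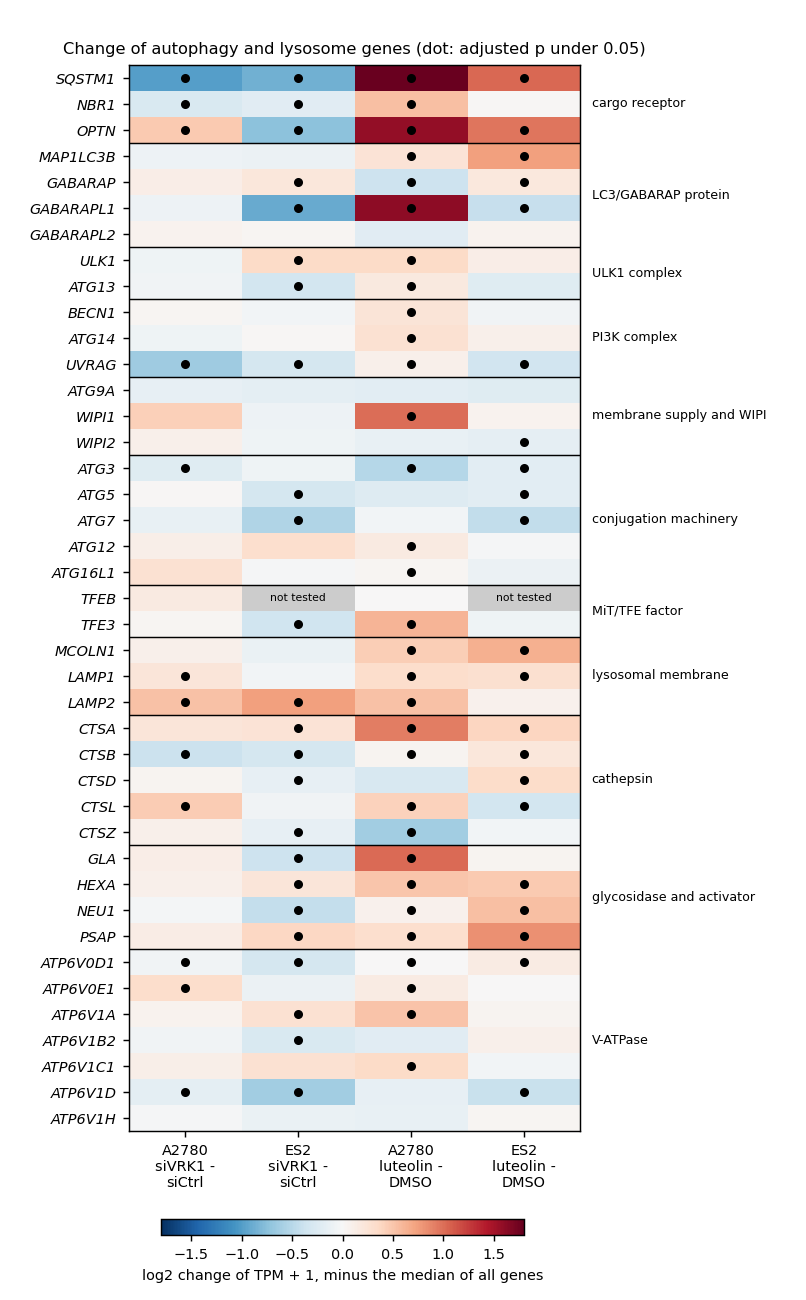
Log2 change of each of the 41 genes (rows, by role) in the 4 treatment comparisons (columns), minus the median of all genes in that comparison; red is higher, blue lower, grey not tested, and a dot marks an adjusted p under 0.05. The cargo receptors SQSTM1 and OPTN rose with luteolin in both lines, and SQSTM1 fell with siVRK1 in both.

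Of the 3 cargo receptors, 3 rose with luteolin in A2780, where 45.6% of all genes did. Under median-of-ratios scaling 3 rose there, against 32.5%. In ES2 luteolin 2 rose, against 22.6% of all genes, and NBR1 was not called. With siVRK1, SQSTM1 and NBR1 fell in both lines, and OPTN rose in A2780 and fell in ES2. SQSTM1, on chromosome 5 (GRCh38, 179806398 to 179838078), binds ubiquitin and LC3 and is itself degraded with its cargo. Its level in A2780 was 47.5, 51.7 and 54.1 TPM in the DMSO libraries and 223, 212 and 188 with luteolin. The luteolin libraries all lay above the DMSO libraries, and the change was 1.78 ± 0.11 relative to the median of all genes (adjusted p = 1.36e-08). In ES2 the DMSO libraries held 79.4, 70.1 and 75.7 TPM and the luteolin libraries 151, 139 and 173, again without overlap (1.03 ± 0.085, adjusted p = 1.18e-06). Part of the A2780 rise lay in retained-intron transcripts: SQSTM1-206 went from 4.40 ± 2.41 to 23.2 ± 4.45 TPM. The coding transcripts SQSTM1-201 and SQSTM1-202 went from 5.83 ± 2.63 to 35.7 ± 4.75 and from 17.6 ± 1.05 to 32.6 ± 2.71. Without non-coding transcripts SQSTM1 was still called higher in A2780 luteolin.

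With the VRK1 siRNA, SQSTM1 moved the other way. A2780 siCtrl libraries held 127, 127 and 110.5 TPM and siVRK1 libraries 59.97, 66.2 and 46.8, a log2 change of -1.07 ± 0.11 (adjusted p = 1.14e-05). ES2 siCtrl libraries held 173, 176 and 171 TPM, and siVRK1 libraries 3, a and b 83.1, 100.3 and 100.9 (-0.87 ± 0.085, adjusted p = 2.89e-06). In both lines the siVRK1 libraries were all below the siCtrl libraries. The siCtrl cells stood above the DMSO cells: their mean was 121 TPM in A2780 and 173 in ES2, against 51.1 and 75.1 in the DMSO cells. The siVRK1 means of 57.6 and 94.8 TPM lay between the DMSO and siCtrl means of their lines.

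OPTN (optineurin; chromosome 10, 13099449 to 13138308), a receptor for damaged mitochondria and bacteria, rose with luteolin in both lines and split with the siRNA. In A2780 it went from 9.45, 6.98 and 7.21 TPM in DMSO to 29.5, 29.2 and 30.2 with luteolin (1.58 ± 0.11 relative to the median, adjusted p = 2.35e-08). ES2 DMSO libraries held 11.1, 11.02 and 8.69 TPM and luteolin libraries 19.5, 20.5 and 22.6 (0.96 ± 0.088, adjusted p = 2.75e-06). Neither pair of groups overlapped. A2780 siVRK1 libraries, at 25.5, 22.5 and 23.2 TPM, were above their siCtrl libraries at 18.4, 19.3 and 15.7 (0.40 ± 0.11, adjusted p = 0.00889). ES2 siVRK1 libraries, at 15.6, 14.95 and 15.8 TPM, were below theirs at 26.7, 25.5 and 27.5 (-0.74 ± 0.088, adjusted p = 1.54e-05). OPTN was the single gene of the 40 tested in both lines that rose with siVRK1 in A2780 and fell in ES2, a pattern held by 1.41% of all genes.

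NBR1, a receptor related in domain structure to SQSTM1, followed it in A2780 and only in part in ES2. A2780 NBR1 rose with luteolin from 13.2, 12.5 and 14.6 to 23.7, 23.1 and 23.2 TPM (0.54 ± 0.065 relative to the median) and fell with siVRK1 from 24.9, 24.3 and 24.4 to 18.8, 18.8 and 19.3 (-0.35 ± 0.065). ES2 NBR1 fell with siVRK1 from 45.6 ± 1.42 to 39.4 ± 1.58 TPM (-0.20 ± 0.059, adjusted p = 0.0104). With luteolin it measured 34.2, 30.8 and 35.8 TPM against 33.2, 34.3 and 32.3 in DMSO, and the libraries overlapped (0.011 ± 0.059, adjusted p = 0.895).

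**Figure D2:**
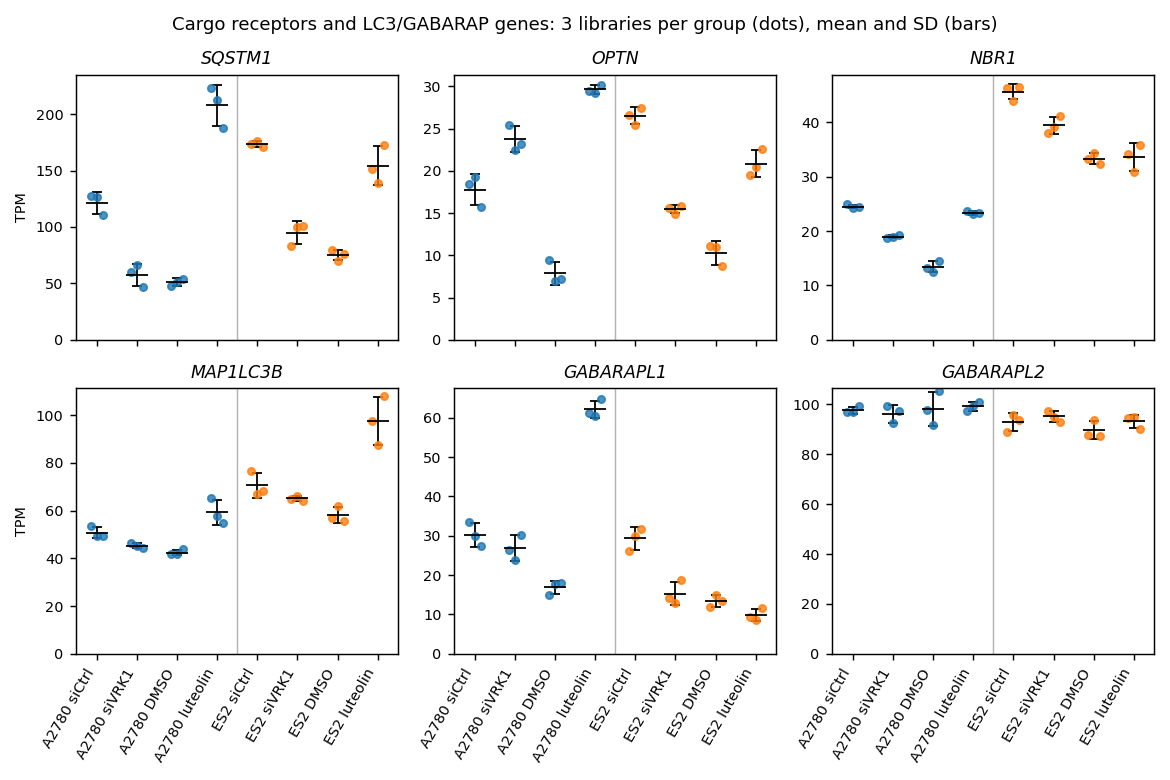
TPM of SQSTM1, OPTN, NBR1, MAP1LC3B, GABARAPL1 and GABARAPL2 in each of the 24 libraries (points) by group, with the mean and SD of 3 libraries. GABARAPL1 stands at 60.4 to 64.7 TPM in A2780 luteolin and at 8.71 to 11.6 in ES2 luteolin, while GABARAPL2 stays between 87.5 and 105 TPM in all groups.

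Among the ubiquitin-like proteins that coat the autophagosome, GABARAPL1 (chromosome 12, 10212458 to 10223130) split the lines. A2780 DMSO libraries held 14.8, 17.7 and 18.1 TPM and luteolin libraries 61.4, 60.4 and 64.7, all higher (1.61 ± 0.10 relative to the median, adjusted p = 1.21e-08). ES2 DMSO libraries held 11.9, 15.1 and 13.4 TPM and luteolin libraries 9.36, 8.71 and 11.6, all lower (-0.41 ± 0.14, adjusted p = 0.0254). That ES2 call was lost when DMSO library 2 or 3, or luteolin library 1 or 2, was left out, with log2 changes of -0.41 to -0.33. The difference between those responses, ES2 minus A2780, was -2.04 ± 0.18 relative to its median of all genes (adjusted p = 5.46e-09), the largest among the 41. In ES2 the gene also fell with siVRK1, from 26.3, 29.9 and 31.8 to 14.3, 12.97 and 18.6 TPM (-0.91 ± 0.14, adjusted p = 0.000115). In A2780 the siCtrl and siVRK1 libraries overlapped, at 33.5, 30.1 and 27.4 and 26.5, 23.9 and 30.3 TPM (-0.17 ± 0.10, adjusted p = 0.199).

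MAP1LC3B, which encodes LC3B, the usual marker protein of autophagosomes, rose with luteolin in both lines. A2780 libraries went from 41.8, 41.8 and 43.7 TPM to 65.1, 57.7 and 54.99 (0.25 ± 0.064 relative to the median, adjusted p = 3.17e-05). ES2 libraries went from 56.8, 61.8 and 55.7 to 97.4, 87.6 and 108 TPM (0.74 ± 0.073, adjusted p = 5.43e-06). Both luteolin groups lay wholly above their DMSO groups. With siVRK1 the change was -0.16 ± 0.064 in A2780 (adjusted p = 0.0588) and -0.11 ± 0.073 in ES2 (adjusted p = 0.206), neither past the threshold; without non-coding transcripts the A2780 change was -0.17 ± 0.057 and passed as lower (adjusted p = 0.0228). Reads of MAP1LC3B and its near-identical copy MAP1LC3B2, which is listed at 0.292 to 1.68 TPM in the group means, were divided by estimate.

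GABARAP and GABARAPL2 were abundant and moved little. GABARAP held 245 to 397 TPM over all libraries. It fell with luteolin in A2780 (-0.37 ± 0.062 relative to the median, adjusted p = 0.0483, libraries overlapping, a call lost without DMSO library 1 or 2 or luteolin library 2 or 3, at uncentred values of -0.17 to -0.08) and rose in ES2 (0.18 ± 0.041, adjusted p = 0.00316) and in ES2 siVRK1 (0.20 ± 0.041). GABARAPL2 passed the test in none of the 4 treatment comparisons, with group means from 89.6 to 99.3 TPM and log2 changes between -0.020 and 0.058. Under median-of-ratios scaling it was called lower in A2780 luteolin, at -0.20 ± 0.042.

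All 5 genes of the ULK1 and lipid kinase complexes were called higher in A2780 luteolin, where 45.6% of all genes were. Under median-of-ratios scaling 4 kept the call (not UVRAG), against 32.5% of all genes. UVRAG and ATG14 lost the call under quantile normalization, and ULK1 lost it without non-coding transcripts. In ES2 luteolin none rose and UVRAG fell, against 22.6% and 25.8% of all genes. ULK1, the initiating kinase, rose from 12.7 ± 0.640 to 19.2 ± 0.242 TPM in A2780 (0.34 ± 0.086 relative to the median). Its protein-coding transcript held 10.5 ± 0.258 and 11.5 ± 0.0801 TPM, and its retained-intron transcripts 2.18 ± 0.869 and 7.72 ± 0.200. Without non-coding transcripts the A2780 change was 0.12 ± 0.071 and did not pass (adjusted p = 0.161). In ES2, where ULK1 was low, it rose with siVRK1 from 2.85, 3.08 and 3.497 to 3.55, 4.70 and 4.49 TPM (0.34 ± 0.12, adjusted p = 0.0322), a call lost without siCtrl library 1 or 2 or siVRK1 library a or b (0.27 to 0.33). The luteolin change in ES2 was 0.11 ± 0.12 (adjusted p = 0.468). ATG13, its partner subunit, rose in A2780 luteolin (0.18 ± 0.076 relative to the median) and fell in ES2 siVRK1 (-0.33 ± 0.11, adjusted p = 0.0251).

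In the lipid kinase complex, UVRAG was the most variable. This BECN1 partner, linked to autophagosome and endosome maturation, fell with siVRK1 in A2780 from 13.9, 13.5 and 16.9 to 7.77, 8.62 and 9.43 TPM (-0.71 ± 0.10, adjusted p = 0.000128). It fell in ES2 from 22.7, 22.5 and 29.3 to 19.4, 19.9 and 19.3 TPM (-0.32 ± 0.11, adjusted p = 0.0265). With luteolin it fell in ES2 from 17.3 ± 2.51 to 13.3 ± 0.988 TPM (-0.35 ± 0.11, adjusted p = 0.0206), a call lost without DMSO library 2 or luteolin library 3 (-0.30 to -0.24). In A2780 its TPM rose from 8.68 ± 0.501 to 11 ± 0.571, but relative to the median of all genes that change was 0.093 ± 0.10 and it lost its call under median-of-ratios scaling. BECN1, the scaffold of the complex, and ATG14, which directs it to the autophagosome, rose in A2780 luteolin by 0.23 and 0.28 relative to the median and passed in no other treatment comparison.

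WIPI1 and WIPI2 read the lipid that the complex makes. WIPI1 rose in A2780 luteolin from 5.20, 4.08 and 5.11 to 11.98, 13.6 and 11.9 TPM, all libraries higher (1.01 ± 0.14 relative to the median, adjusted p = 5.67e-06). In ES2, where its DMSO level was 14.6 ± 0.921 TPM, the luteolin change was 0.057 ± 0.10 (adjusted p = 0.674). WIPI2 fell slightly in ES2 luteolin, from 79.5 ± 1.93 to 70.7 ± 1.15 TPM (-0.17 ± 0.038). ATG9A, the lipid scramblase carried by seed vesicles, passed the test in none of the 4 treatment comparisons, with group means of 19.6 to 34.9 TPM.

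The conjugation enzymes did not move as 1 group. ATG3, the enzyme that transfers LC3 to lipid, was the only gene of the 40 that fell with luteolin in both lines, a pattern held by 10.5% of all genes. It fell in A2780 from 44.7, 41.6 and 45.4 to 34.1, 37.6 and 34.6 TPM (-0.52 ± 0.064 relative to the median) and in ES2 from 76.6, 77.9 and 74.4 to 66.96, 62.7 and 71 (-0.19 ± 0.050, adjusted p = 0.00785). No luteolin library of either line reached its DMSO libraries. ATG3 also fell in A2780 siVRK1 (-0.29 ± 0.064, adjusted p = 0.00304). ATG7, which activates both conjugation systems, fell in ES2 with siVRK1 (-0.55 ± 0.13) and with luteolin (-0.45 ± 0.13, adjusted p = 0.0112; not a call without luteolin library 3, at -0.33). ATG5, part of the ATG12-ATG5-ATG16L1 ligase, fell in the same ES2 comparisons (-0.32 ± 0.059 and -0.19 ± 0.059), though without non-coding transcripts neither ES2 change passed, and the luteolin call was lost without DMSO library 3 (-0.15). ATG12 and ATG16L1 rose in A2780 luteolin by 0.16 and 0.038 relative to the median; the ATG16L1 libraries overlapped, and its call was lost under median-of-ratios scaling.

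The MiT/TFE factors differed in level between the lines. TFEB was at 2.35 to 6.11 TPM in A2780 and at 0 to 0.470 in ES2, with no overlap. Its A2780 change was 0.078 ± 0.25 with siVRK1 and 0.0060 ± 0.25 relative to the median with luteolin, neither past the threshold (adjusted p = 0.832 and 0.446). TFE3, the more abundant factor in both lines, rose in A2780 luteolin from 22.1, 20.8 and 21.7 to 35.6, 38.3 and 43.2 TPM (0.61 ± 0.073 relative to the median, adjusted p = 7.54e-07). In ES2 it fell with siVRK1 from 58.04, 59.5 and 56.2 to 42.9, 45.5 and 45.6 TPM (-0.37 ± 0.050, adjusted p = 5.12e-05), and with luteolin measured 48.4 ± 2.60 against 51.5 ± 1.70 in DMSO (-0.087 ± 0.050, adjusted p = 0.174).

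A further list held 19 genes: controllers of these factors at the lysosome, and the related factors MITF and TFEC. The controllers were the Ragulator, Rag GTPases, folliculin complex, TSC complex and MTORC1 subunits. Of the 19 genes, 18 were tested in A2780 and 17 in ES2. In A2780 luteolin 11 rose and 1 fell, where 45.6% and 19.9% of all genes did. Under median-of-ratios scaling 8 rose and 6 fell, against 32.5% and 32.5%. FLCN, the folliculin that keeps TFEB and TFE3 inactive, rose from 12.2 to 29.1 TPM (0.97 ± 0.12 relative to the median; uncentred, 1.19 ± 0.12, and 0.72 ± 0.083 without non-coding transcripts). In ES2 luteolin 4 rose and 2 fell (background 22.6% and 25.8%), among them the Rag GTPase RRAGC at 14.5 and 26 TPM (0.79 ± 0.082). With siVRK1, 2 rose and 4 fell in A2780 (background 13.8% and 27%), and 3 rose and 5 fell in ES2 (26.8% and 28%). LAMTOR2, a Ragulator subunit, rose in both lines: 0.53 ± 0.054 in A2780 and 1.03 ± 0.062 in ES2, where its mean went from 75.6 to 156 TPM. FNIP1, the partner of folliculin, fell in both (-0.60 ± 0.093 and -0.43 ± 0.069).

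At the lysosomal membrane, MCOLN1 encodes the calcium channel mucolipin 1, and LAMP1 and LAMP2 major membrane glycoproteins. MCOLN1 rose with luteolin in A2780 from 21.8, 23.4 and 21.1 to 34.7, 33.04 and 39.03 TPM (0.44 ± 0.087 relative to the median, adjusted p = 2.66e-05). In ES2 it rose from 7.96, 11.1 and 10.4 to 16, 13.9 and 17.4 TPM (0.64 ± 0.12, adjusted p = 0.000615), without overlap in either line. Part of the rise lay in retained-intron transcripts, which went from 3.11 ± 1.25 to 10.5 ± 2.39 TPM in A2780 and from 1.84 ± 1.01 to 6.28 ± 2.75 in ES2. Its protein-coding transcripts summed to 19 ± 1.32 and 25.1 ± 0.729 TPM in A2780, and to 7.97 ± 1.31 and 9.49 ± 1.34 in ES2. Without non-coding transcripts the ES2 change was 0.23 ± 0.11 and no longer passed (adjusted p = 0.101). With siVRK1 the log2 changes were 0.015 ± 0.087 in A2780 and -0.12 ± 0.12 in ES2, both short of the threshold.

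LAMP1 rose in both lines with luteolin. A2780 libraries held 139, 135 and 138 TPM in DMSO and 197, 201 and 198 with luteolin (0.31 ± 0.041 relative to the median, adjusted p = 2.09e-07). ES2 libraries held 106, 103 and 102 and 121, 129 and 129 TPM (0.28 ± 0.036, adjusted p = 4.23e-05). The groups did not overlap in either line. With siVRK1 it rose in A2780, from 164, 150.0 and 156 to 176, 173 and 169 TPM (0.14 ± 0.041, adjusted p = 0.0141; 0.11 and no call without siCtrl library 2), and measured 149.9, 149 and 145 against 151, 153 and 154 TPM in ES2 (-0.045 ± 0.036, adjusted p = 0.312).

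LAMP2, which is needed for autophagosomes to fuse with lysosomes, was the only gene of the 40 that rose with siVRK1 in both lines, a pattern held by 7.82% of all genes. A2780 libraries went from 16.3, 18.5 and 15.5 to 24.6, 22.2 and 23.2 TPM (0.45 ± 0.093, adjusted p = 0.00188), and ES2 libraries from 17.2, 17.6 and 20.7 to 30.4, 30.6 and 33.4 (0.74 ± 0.082, adjusted p = 8.67e-06). All siVRK1 libraries were above all siCtrl libraries of their line. Luteolin raised it in A2780, from 18.01, 18.1 and 22.7 to 31.8, 34.2 and 33.9 TPM (0.53 ± 0.093 relative to the median), and not detectably in ES2 (0.073 ± 0.082, adjusted p = 0.491). In ES2 the low group was siCtrl: DMSO libraries held 29.9, 34.5 and 32.2 TPM, near the siVRK1 libraries.

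By kallisto's estimates, 2 coding transcripts of LAMP2 differed in opposite directions in ES2 siVRK1. There, LAMP2-202 measured 9.01 ± 0.453 TPM in siCtrl and 25.2 ± 0.870 in siVRK1, while LAMP2-203 measured 5.22 ± 0.379 and 1.02 ± 0.311. With luteolin, LAMP2-201 went from 3.21 ± 0.302 to 6.77 ± 0.644 TPM in ES2 and from 1.64 ± 0.382 to 6.27 ± 0.548 in A2780, and LAMP2-202 in ES2 from 26.9 ± 1.66 to 21.96 ± 1.01. In A2780 the means of LAMP2-201, LAMP2-202 and LAMP2-203 were all higher with luteolin than with DMSO and in siVRK1 than in siCtrl. These transcript values are descriptions without a test.

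**Figure D3:**
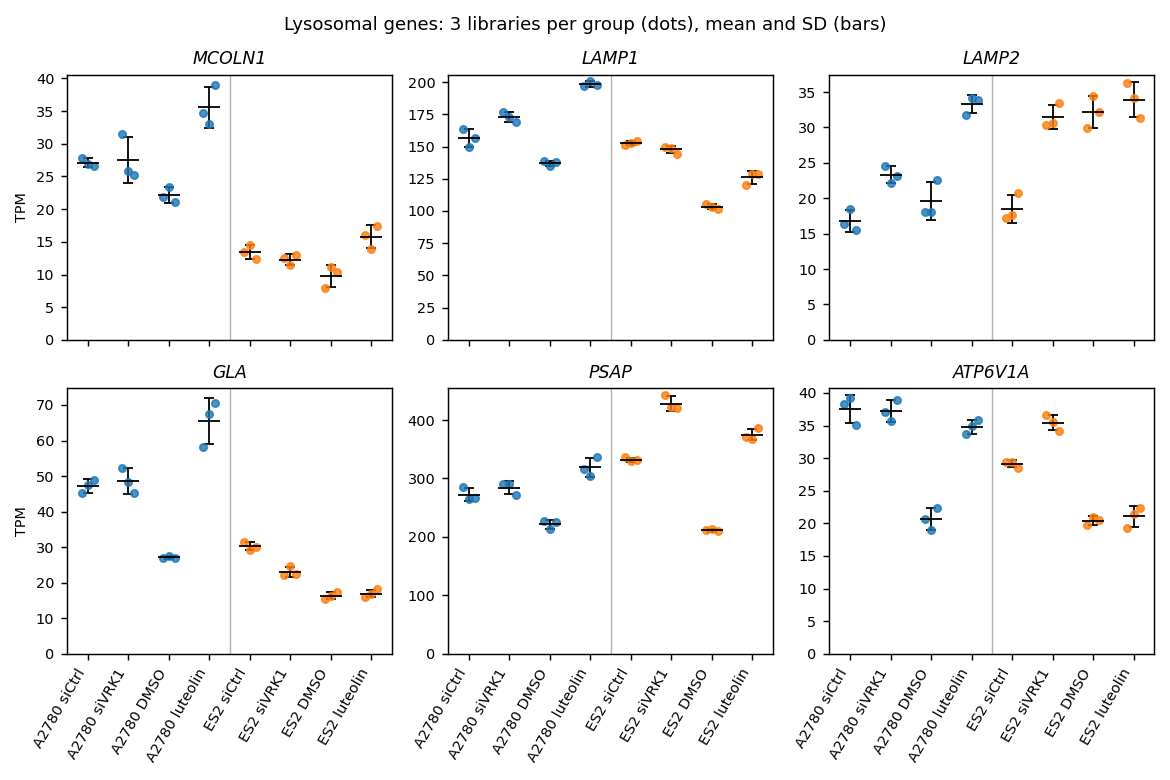
TPM of MCOLN1, LAMP1, LAMP2, GLA, PSAP and ATP6V1A in each of the 24 libraries (points) by group, with the mean and SD of 3 libraries. GLA and ATP6V1A rise with luteolin in A2780 and stay near their DMSO level in ES2, whereas LAMP2 in ES2 is low in siCtrl alone.

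The MCOLN1 and LAMP1 promoters are printed because both genes rose by their summed TPM with luteolin in both lines. Both also carry repeated copies of CACGTG, the core of the CLEAR element, and neither window overlaps an annotated exon in GENCODE 29. Without non-coding transcripts the ES2 call of MCOLN1 was lost. CTSA also carries 2 copies and rose in both lines by its summed TPM, but its window overlaps an exon, so a short stretch is shown further on. Each line gives the 250 bases before the RefSeq start (GRCh38.p14), 5′ to 3′ on the gene's strand, with CACGTG in capitals. MCOLN1 lies at chr19:7522374-7522623 (+ strand, 2 copies) and LAMP1 at chr13:113296989-113297238 (+ strand, 5 copies).
MCOLN1: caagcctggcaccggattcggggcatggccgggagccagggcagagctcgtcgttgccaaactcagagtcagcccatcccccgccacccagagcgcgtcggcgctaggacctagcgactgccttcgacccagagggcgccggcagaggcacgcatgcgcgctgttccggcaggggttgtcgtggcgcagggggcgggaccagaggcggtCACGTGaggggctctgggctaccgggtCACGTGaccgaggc
LAMP1: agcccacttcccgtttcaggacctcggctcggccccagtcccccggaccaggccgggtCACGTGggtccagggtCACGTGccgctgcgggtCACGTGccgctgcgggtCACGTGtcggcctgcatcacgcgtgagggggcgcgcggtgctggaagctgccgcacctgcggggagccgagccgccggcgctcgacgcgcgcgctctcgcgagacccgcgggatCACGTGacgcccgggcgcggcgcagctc

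For the other 6 genes with CACGTG, the 30 bases around the copy nearest before the start are shown, with CACGTG in capitals. All but the NEU1 window overlap an exon of a transcript in GENCODE 29. They lie at chr20:45891298-45891327 (+) for CTSA, chr11:1763957-1763986 (-) for CTSD, chr6:31862930-31862959 (-) for NEU1 and chr16:67481199-67481228 (-) for ATP6V0D1. The ATG3 window is chr3:112561963-112561992 (-) and the ATG14 window chr14:55411834-55411863 (-).
CTSA: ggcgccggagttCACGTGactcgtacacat
CTSD: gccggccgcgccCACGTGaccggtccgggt
NEU1: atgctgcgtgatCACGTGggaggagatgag
ATP6V0D1: cccccttatggtCACGTGaggcgcttgcgc
ATG3: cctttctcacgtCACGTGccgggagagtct
ATG14: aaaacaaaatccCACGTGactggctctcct

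RefSeq windows of 250 bases before to 50 after the start were matched by symbol for 31 of the 41 genes. CACGTG, which reads the same on both strands, was in 8 of those 31, against 7.43% of 27305 promoters of the same length. The longer form TCACGTGA, which contains it and is also its own reverse complement, was in 5 of 31 against 1.04%. In ES2 luteolin, 6 of the 8 genes with CACGTG rose and 1 (ATG3) fell, with a median log2 change of 0.30; 22.6% of all genes rose there and 25.8% fell. Of the 22 tested genes whose window lacked it, 4 rose and 6 fell, with a median of -0.06. Of the 10 genes without a matched window, 3 rose and 1 fell there, with a median of 0.06. MCOLN1, among the 6 that rose with CACGTG, lost its ES2 call without non-coding transcripts. In A2780 luteolin, 6 of 8 rose and 1 fell with CACGTG, and 14 of 23 rose and 2 fell without it, against 45.6% and 19.9% of all genes. The median log2 change was 0.39 with it and 0.39 without it. Under median-of-ratios scaling 4 rose and 2 fell with it and 13 rose and 5 fell without it, against 32.5% and 32.5%. Of the 10 genes without a matched window, 8 rose and none fell in A2780 luteolin, with a median of 0.44, and 5 rose and 1 fell under that scaling. CTSA, counted among the genes that rose with CACGTG in A2780, fell there without non-coding transcripts. A motif match is a description of the sequence, not a bound site, and the windows do not cover introns or alternative starts.

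The cathepsins are lysosomal proteases, and CTSA, a carboxypeptidase that also protects the sialidase NEU1, gave the least simple reading. Its summed level rose in A2780 luteolin from 51.3, 48.3 and 47.6 to 108, 101.2 and 119 TPM, all libraries higher (0.92 ± 0.070 relative to the median, adjusted p = 3.54e-08). Most of the rise was in retained-intron transcripts, which held 7.79, 5.17 and 4.57 TPM in DMSO and 66.6, 59.1 and 81.3 with luteolin, or 11.8% and 62.9% of CTSA. The main coding transcript, CTSA-220, measured 36.3, 38.8 and 38.3 TPM in DMSO and 24.96, 21.6 and 21.4 with luteolin, every luteolin library lower. Its other coding transcripts summed to 6.96, 3.67 and 4.29 TPM in DMSO and 12.3, 16.7 and 11.3 with luteolin, all higher. Without non-coding transcripts CTSA fell in A2780 luteolin, by a log2 change of -0.24 ± 0.065 before any centring (adjusted p = 0.00477). The direction of CTSA in A2780 luteolin thus turned with the transcripts counted.

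With the siRNA, A2780 retained-intron transcripts of CTSA held 14.5 ± 2.26 TPM in siCtrl and 26.2 ± 1.77 in siVRK1. The summed A2780 change was 0.14 ± 0.070 (adjusted p = 0.126), a call as higher under median-of-ratios scaling (0.23 ± 0.071) and as lower without non-coding transcripts (-0.18 ± 0.065, adjusted p = 0.0362). In ES2 they held 8.53 ± 2.33 TPM in DMSO and 12.8 ± 0.560 with luteolin, and CTSA rose there with or without non-coding transcripts (0.38 ± 0.046 and 0.35 ± 0.041). ES2 CTSA also rose with siVRK1, from 127, 132 and 129 to 158, 149 and 155 TPM (0.25 ± 0.046, adjusted p = 0.000514). The retained-intron share of all TPM, given above, was also higher in A2780 luteolin; its part in the CTSA value was not tested.

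**Figure D4:**
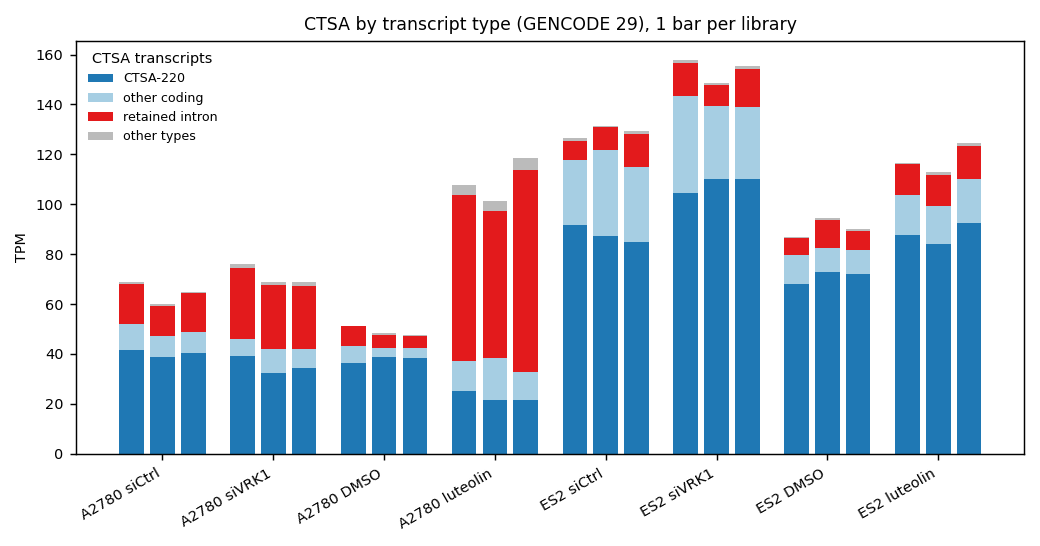
CTSA TPM in each library, stacked by transcript class (CTSA-220, other coding, retained intron, other types). In A2780 luteolin the retained-intron part is 59.1 to 81.3 TPM and CTSA-220 is 21.4 to 25.0 TPM, while in all ES2 libraries CTSA-220 makes up most of the bar.

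Other cathepsins differed in direction. CTSB, a cysteine protease, fell with siVRK1 in both lines and rose with luteolin in both: A2780 libraries went from 100.4, 94.9 and 97.7 to 70.98, 72.8 and 68.7 TPM with siVRK1 (-0.46 ± 0.053, adjusted p = 2.96e-05), and ES2 libraries from 291, 324 and 307 to 243, 247 and 252 (-0.31 ± 0.056). The A2780 luteolin change of CTSB was 0.048 ± 0.053 relative to the median and not a call under median-of-ratios scaling; in ES2 it was 0.20 ± 0.056 (adjusted p = 0.00898). CTSD, the main aspartic protease, rose in ES2 luteolin from 85.4, 81.7 and 83.7 to 100.4, 105 and 109.6 TPM (0.32 ± 0.038, adjusted p = 2.29e-05) and fell in ES2 siVRK1 (-0.15 ± 0.038). In A2780 luteolin CTSD measured 77.2, 70.9 and 76.3 TPM against 79.6, 80.7 and 74.7 in DMSO, overlapping (-0.28 ± 0.057 relative to the median); it was called lower under median-of-ratios scaling and not under the deposited scaling.

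CTSL, a cysteine protease that also processes other cathepsins, rose in A2780 with both treatments and fell in ES2 with luteolin. A2780 libraries went from 43.95, 43.2 and 43.2 to 70.8, 66.3 and 65.6 TPM with luteolin (0.41 ± 0.054 relative to the median), and from 60.1, 66.2 and 64.99 to 87.7, 80.8 and 82.2 with siVRK1 (0.39 ± 0.054). ES2 luteolin libraries, at 72.6, 72.5 and 69.98 TPM, were all below DMSO at 92.2, 89.7 and 89.2 (-0.33 ± 0.037, adjusted p = 1.44e-05). CTSZ, a carboxypeptidase, fell in A2780 luteolin from 17.7, 15.4 and 16.8 to 13.4, 12.02 and 11.2 TPM (-0.63 ± 0.12 relative to the median, adjusted p = 0.00897) and just passed as lower in ES2 siVRK1 (-0.15 ± 0.059, adjusted p = 0.0471, libraries overlapping).

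Of the 3 glycosidases and their activator, 4 of 4 rose with luteolin in A2780, where 45.6% of all genes did, and 3 of 4 in ES2, where 22.6% did. Under median-of-ratios scaling 3 of 4 rose in A2780 (not NEU1), against 32.5%. PSAP encodes prosaposin, the precursor of activators of glycolipid breakdown. Its ES2 libraries went from 211, 213 and 209 TPM in DMSO to 371, 368 and 386 with luteolin (0.82 ± 0.031, adjusted p = 1.45e-09), and its A2780 libraries from 227, 213 and 225 to 316, 305 and 337 (0.31 ± 0.049 relative to the median). With siVRK1 it rose in ES2 from 336, 329.6 and 331 to 442, 422 and 420.3 TPM (0.36 ± 0.031, adjusted p = 7.85e-07). None of these pairs of groups overlapped.

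GLA, the galactosidase lacking in Fabry disease, rose in A2780 luteolin from 26.9, 27.6 and 26.98 to 58.2, 67.5 and 70.5 TPM (1.02 ± 0.074 relative to the median, adjusted p = 2.82e-08). ES2 luteolin and DMSO libraries overlapped at 15.9, 16.9 and 18.1 and 15.5, 16.4 and 17.3 TPM (0.048 ± 0.067, adjusted p = 0.588). GLA fell in ES2 siVRK1, from 31.5, 29.3 and 30.1 to 22.1, 24.6 and 22.5 TPM (-0.38 ± 0.067, adjusted p = 0.000408). HEXA, the hexosaminidase subunit lacking in Tay-Sachs disease, rose with luteolin in A2780 (53.4 ± 1.03 to 88.3 ± 6.001 TPM, 0.50 ± 0.060 relative to the median) and in ES2 (64.98 ± 2.23 to 90.7 ± 3.62 TPM, 0.47 ± 0.048). NEU1, the lysosomal sialidase, rose with luteolin in ES2 from 25.9, 24.99 and 24.6 to 37.7, 35.2 and 38.5 TPM (0.54 ± 0.050, adjusted p = 2.62e-06) and fell with siVRK1 from 61.9, 61.9 and 66.2 to 47.8, 45.5 and 47.1 (-0.43 ± 0.050, adjusted p = 1.22e-05). In A2780 luteolin NEU1 changed by 0.076 ± 0.049 relative to the median, a call in the deposited scaling alone of those 2 scalings.

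Of the 7 V-ATPase subunits, 4 rose in A2780 luteolin and none fell, against 45.6% and 19.9% of all genes. Under median-of-ratios scaling 2 rose and 2 fell, against 32.5% and 32.5%, and the median change of the 7 was 0.0069 relative to that of all genes. In ES2 luteolin 1 rose and 1 fell (background 22.6% and 25.8%). ATP6V1A, the catalytic subunit, rose in A2780 luteolin from 20.7, 18.97 and 22.4 to 33.6, 34.9 and 35.8 TPM (0.51 ± 0.070 relative to the median, adjusted p = 1.61e-06) and overlapped in ES2, at 19.3, 21.5 and 22.4 against 19.7, 21.04 and 20.5 TPM (0.042 ± 0.060). With siVRK1 it rose in ES2, from 29.5, 29.5 and 28.5 to 36.6, 35.6 and 34.2 TPM (0.27 ± 0.060, adjusted p = 0.00187), and the A2780 change was -0.010 ± 0.070 (adjusted p = 0.924). ATP6V1D, a subunit of the central stalk, fell in ES2 with siVRK1 from 106, 105 and 104 to 72.6, 66.9 and 64.3 TPM (-0.62 ± 0.046, adjusted p = 2.58e-07). It fell there with luteolin from 64.3, 66.2 and 64.7 to 50.6, 47.6 and 48.3 (-0.41 ± 0.046), and in A2780 siVRK1 (-0.25 ± 0.072, adjusted p = 0.0133; lost without siCtrl library 1 or siVRK1 library 3, at -0.22 to -0.20).

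ATP6V0D1, which links the membrane part to the stalk, fell with siVRK1 in ES2 from 119 ± 2.84 to 94.8 ± 3.42 TPM (-0.32 ± 0.038) and in A2780 (-0.15 ± 0.043, lost under median-of-ratios scaling, and at -0.14 to -0.13 without siCtrl library 1 or siVRK1 library 1). With luteolin it rose in ES2 (0.14 ± 0.038), and in A2780 it stood at 0.0069 ± 0.043 relative to the median. ATP6V0E1, a small membrane subunit, rose in A2780 siVRK1 from 86.5 ± 2.67 to 102 ± 2.46 TPM (0.24 ± 0.046, adjusted p = 0.00113); its luteolin call in A2780 was lost under median-of-ratios scaling. ATP6V1B2, the regulatory nucleotide-binding subunit, fell in ES2 siVRK1 (-0.27 ± 0.043), and ATP6V1C1 of the stator passed only in A2780 luteolin (0.34 ± 0.14 relative to the median). ATP6V1H, a regulatory subunit, passed in none of the 4 treatment comparisons, with group means of 38.4 to 77.4 TPM.

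Luteolin responses were then compared between the lines in 1 fit of all 24 libraries. With both lines tested, 11 of 40 genes rose in both: SQSTM1, OPTN, MAP1LC3B, MCOLN1, LAMP1, CTSA, CTSB, HEXA, NEU1, PSAP and ATP6V0D1. That pattern was held by 15.5% of all genes. Under median-of-ratios scaling 8 of 40 held it, against 12.8% of all genes, since CTSB, NEU1 and ATP6V0D1 lost their A2780 calls. Without non-coding transcripts the direction of CTSA in A2780 turned and the ES2 call of MCOLN1 was lost. A rise in A2780 with a fall in ES2 was seen in 3 (GABARAPL1, UVRAG and CTSL; background 6.02%; 2 under median-of-ratios scaling, without UVRAG, against 3.32%), and the reverse in 1 (GABARAP; background 2.11%).

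The test of the difference itself, ES2 minus A2780, called 6 of 41 genes higher and 25 lower, against 14.7% and 35.8% of all genes. The median of all genes stood at -0.20, and median-of-ratios scaling gave 9 higher and 15 lower, against 24.3% and 25.4%. Relative to that median, GABARAPL1 (-2.04 ± 0.18), GLA (-0.99 ± 0.10), WIPI1 (-0.97 ± 0.17), SQSTM1 (-0.78 ± 0.15), CTSL (-0.76 ± 0.060) and TFE3 (-0.72 ± 0.085) responded less, or downward, in ES2. CTSD (0.58 ± 0.066), CTSZ (0.56 ± 0.14), GABARAP (0.53 ± 0.077), PSAP (0.49 ± 0.057) and MAP1LC3B (0.46 ± 0.10) stood higher in the ES2 response, as did NEU1 (0.45 ± 0.063). The CTSZ call was lost when any of 8 libraries was left out and the MAP1LC3B call for any of 7, with uncentred differences of 0.31 to 0.35 and 0.19 to 0.26. LAMP2 (-0.47 ± 0.13) and ATP6V1A (-0.49 ± 0.088) were also lower. LAMP1, called lower under the deposited scaling, was at -0.054 ± 0.049 relative to the median and was not a call under median-of-ratios scaling. The difference for MCOLN1 did not pass (adjusted p = 0.924).

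**Figure D5:**
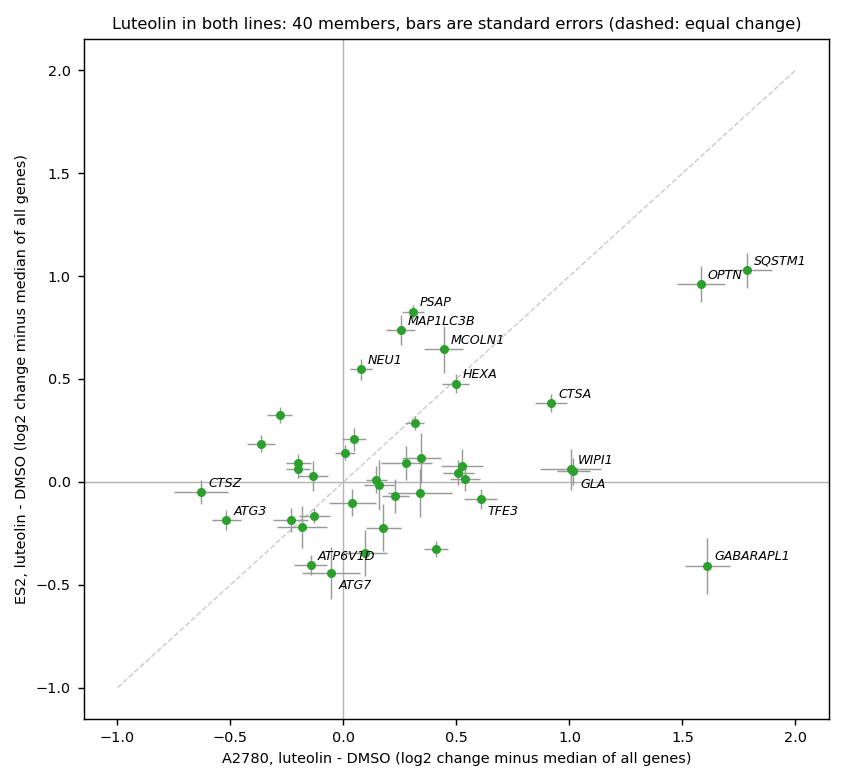
Luteolin change in ES2 against luteolin change in A2780 for the 40 genes tested in both, each centred on its line's all-gene median (log2), with standard errors; the dashed line marks equal change. GABARAPL1 lies farthest below the line, and SQSTM1 and OPTN are high on both axes.

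The siRNA responses also differed by line. The test of ES2 minus A2780 called 5 of 41 genes higher and 11 lower, against 20.7% and 13.2% of all genes, and 2 and 16 under median-of-ratios scaling, against 15.8% and 19.4%. Among the lower genes OPTN led, at -1.14 ± 0.14 (adjusted p = 2.48e-06), followed by GABARAPL1 at -0.74 ± 0.18, CTSL at -0.45 ± 0.060, GLA at -0.42 ± 0.10 and ATP6V1D at -0.37 ± 0.085. ULK1 (0.49 ± 0.14), PSAP (0.30 ± 0.057), ATP6V1A (0.28 ± 0.088), ATG3 (0.21 ± 0.079) and HEXA (0.20 ± 0.075) were higher in ES2; the calls of the last 3 were lost under median-of-ratios scaling, and those of ATG3 and HEXA also when any of 8 or 9 libraries was left out (0.18 to 0.22 and 0.15 to 0.21). A fall in both lines was shared by 6 genes (SQSTM1, NBR1, UVRAG, CTSB, ATP6V0D1 and ATP6V1D), a pattern held by 15.2% of all genes. Under median-of-ratios scaling it was 5 (not ATP6V0D1), against 12.7%. For SQSTM1 the difference between lines was 0.20 ± 0.15 (adjusted p = 0.326), and for LAMP2 it was 0.29 ± 0.13 (adjusted p = 0.0894).

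Within each line, the luteolin and VRK1 siRNA responses were set against each other; they rest on separate controls. In A2780, 5 genes rose with both (OPTN, LAMP1, LAMP2, CTSL and ATP6V0E1; background 7.62%), and 5 rose with luteolin and fell with siVRK1 (SQSTM1, NBR1, UVRAG, CTSB and ATP6V0D1; background 9.41%). Under median-of-ratios scaling only SQSTM1 and NBR1 kept both calls of the latter pattern (background 4.59%). The former then held 7 genes, with WIPI1, CTSA and PSAP and without ATP6V0E1 (background 8.37%). ATG3 fell with both (background 8.64%). The test of luteolin minus siVRK1 called 26 of 41 genes higher and 1 lower, against 43.3% and 14.3% of all genes. With the typical gene set at no change it called 16 and 8, against 27.1% and 28.5%. Relative to the median of all genes (0.30), SQSTM1 stood at 2.78 ± 0.16, GABARAPL1 at 1.69 ± 0.14, OPTN at 1.10 ± 0.15, GLA at 0.90 ± 0.11, and NBR1 at 0.81 ± 0.091. CTSZ, the 1 lower gene, stood at -0.72 ± 0.17, and its call was lost without mitochondrial mRNAs, without non-coding transcripts and under a pseudocount of 0.1. It was also lost with no filter, with the replicate block, and when any of 9 libraries was left out (uncentred, -0.45 to -0.29).

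In ES2, 4 genes rose with both treatments (GABARAP, CTSA, HEXA and PSAP; background 6.92%), and 5 fell with both (GABARAPL1, UVRAG, ATG5, ATG7 and ATP6V1D; background 9.88%). Leaving out 1 library ended the luteolin call of GABARAPL1 for any of 4 libraries, of UVRAG for any of 2, and of ATG5 and ATG7 for 1 each. Without non-coding transcripts ATG5 passed in neither ES2 comparison. A rise with luteolin and a fall with siVRK1 was seen in 6 of 40 (SQSTM1, OPTN, CTSB, CTSD, NEU1 and ATP6V0D1; background 5.54%). The test of luteolin minus siVRK1 called 17 genes higher and 3 lower, against 25.8% and 26% of all genes. SQSTM1 (1.89 ± 0.12), OPTN (1.70 ± 0.12), NEU1 (0.97 ± 0.070), MAP1LC3B (0.85 ± 0.10) and MCOLN1 (0.76 ± 0.16) led the higher genes. LAMP2 (-0.67 ± 0.12), CTSL (-0.27 ± 0.052) and ATP6V1A (-0.23 ± 0.085) were the 3 lower; the ATP6V1A call was lost when any of 8 libraries was left out (-0.24 to -0.17).

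The controls themselves differed for these genes. In ES2, siCtrl cells were higher than DMSO cells for 34 of 40 genes and lower for 2, against 34.7% and 21.5% of all genes. In A2780 they were higher for 31 of 41 and lower for 1, against 47.2% and 10.9%, and under median-of-ratios scaling for 21 and 4, against 23.4% and 25.9%. The median of all genes in that A2780 comparison was 0.24. SQSTM1 was 0.99 ± 0.11 above that median in A2780 and 1.20 ± 0.085 higher in ES2. OPTN was 0.84 ± 0.11 and 1.29 ± 0.088 in the same order, GABARAPL1 0.56 ± 0.10 and 1.07 ± 0.14, ATP6V1B2 0.46 ± 0.056 and 1.16 ± 0.043, and NEU1 0.22 ± 0.049 and 1.30 ± 0.050. LAMP2 was lower in ES2 siCtrl (-0.77 ± 0.082), as was ULK1 (-0.73 ± 0.12). The labels give no culture times, so siRNA transfection and any other difference in handling between these controls cannot be told apart. These contrasts share the siCtrl and DMSO libraries with the treatment comparisons, so their values are set side by side only.

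At baseline, with the siCtrl and DMSO libraries of each line pooled in the contrast, ES2 was higher than A2780 for 25 of 41 genes and lower for 12, against 34.3% and 49.4% of all genes. Relative to the median of all genes (-0.17), CTSZ was 2.17 ± 0.069 higher in ES2, WIPI1 1.87 ± 0.087, CTSB 1.73 ± 0.038, CTSL 1.35 ± 0.030 and WIPI2 1.28 ± 0.037. CTSB was the third most abundant of these genes in ES2 siCtrl, at 307 ± 16.3 TPM against 97.7 ± 2.75 in A2780. TFEB (-1.69 ± 0.14), ULK1 (-1.21 ± 0.071), MCOLN1 (-0.87 ± 0.074), GLA (-0.49 ± 0.049) and NEU1 (-0.44 ± 0.032) were lower in ES2. TFE3 went the other way from TFEB, at 1.24 ± 0.043. For NEU1 the size of the gap depended on the control. The siCtrl libraries held 61.9, 61.9 and 66.2 TPM in ES2 and 73.0, 69.97 and 74.7 in A2780. The DMSO libraries held 25.9, 24.99 and 24.6 TPM in ES2 and 52.7, 52.2 and 51.6 in A2780. PSAP was higher in ES2 siCtrl (336, 329.6 and 331 TPM) than in A2780 siCtrl (285, 265 and 266), while its DMSO libraries overlapped. The baseline values describe 2 lines and carry no error for other lines.

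Levels of the 41 genes spanned a wide range on the TPM scale, which corrects for transcript length. PSAP (211 to 428 TPM in the group means) and GABARAP (259 to 382) were the highest in most groups, and TFEB was the lowest in all 8. SQSTM1 had its highest mean in A2780 luteolin, above ES2 siCtrl (173 TPM), and its lowest in A2780 DMSO. Its neighbours A2780 siVRK1 (57.6 ± 9.89 TPM) and A2780 DMSO (51.1 ± 3.34) were closer than the spread of the former.

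Other genes of the same pathways were read from lists that contain none of the 41. Among 32 other autophagy genes, 12 of 31 tested rose and 1 fell in A2780 luteolin, against 45.6% and 19.9% of all genes. Under median-of-ratios scaling 9 rose and 6 fell, against 32.5% and 32.5%. In ES2 luteolin 7 of 30 rose and 9 fell (background 22.6% and 25.8%). The LC3-processing protease ATG4A rose in A2780 from 2.69 to 6.43 TPM (0.80 ± 0.12 relative to the median). In ES2 the mitophagy receptors BNIP3L and BNIP3 fell from 49.9 to 25.2 and from 283 to 159.9 TPM (-0.96 ± 0.070 and -0.82 ± 0.037). With siVRK1, 4 rose and 5 fell in A2780 (background 13.8% and 27%; 6 and 4 under median-of-ratios scaling, against 20.7% and 20.4%) and 7 rose and 9 fell in ES2 (26.8% and 28%). ATG10, the enzyme that links ATG12 to ATG5, fell in both lines (-0.83 ± 0.10 and -0.76 ± 0.11), while BNIP3L rose in A2780 (0.40 ± 0.086) and fell in ES2 (-0.81 ± 0.070).

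Among 33 other lysosomal hydrolases, 18 of 31 rose and 3 fell in A2780 luteolin, and 15 and 8 under median-of-ratios scaling, with the same backgrounds as for the autophagy genes. In ES2 luteolin 12 of 32 rose and 5 fell (background 22.6% and 25.8%). IDUA, the iduronidase lacking in Hurler syndrome, rose in both: 4.69 ± 2.63 to 59.98 ± 5.94 TPM in A2780 (3.31 ± 0.28 relative to the median) and 2.32 ± 0.942 to 9.15 ± 1.56 in ES2 (1.64 ± 0.25). The arylsulfatase ARSA rose in both (1.31 ± 0.11 relative to the median and 1.06 ± 0.11), and the protease CTSC fell in both (-0.62 ± 0.11 relative to the median and -0.77 ± 0.061). With siVRK1, 5 rose and 9 fell in A2780 (background 13.8% and 27%) and 13 rose and 7 fell in ES2 (26.8% and 28%). CTSH rose in ES2 from 26.3 ± 0.697 to 84.4 ± 2.59 TPM (1.65 ± 0.046), and CTSF from 4.97 ± 0.915 to 15.1 ± 1.13 (1.44 ± 0.11). AGA fell in A2780 (-0.90 ± 0.15) and MAN2B1 rose there (0.78 ± 0.11).

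Among 20 other lysosomal membrane and delivery genes, 18 of 20 rose and none fell in A2780 luteolin (15 and none under median-of-ratios scaling), with a median log2 change of 0.72. Over all genes 45.6% and 19.9% rose and fell, and 32.5% and 32.5% under that scaling. In ES2 luteolin 9 of 19 rose and 2 fell (background 22.6% and 25.8%). GNPTG, a subunit of the enzyme that tags hydrolases with mannose 6-phosphate, rose in A2780 from 23.1 to 51.9 TPM (0.92 ± 0.087 relative to the median) and in ES2 (0.83 ± 0.11). The cholesterol carrier NPC2 rose in ES2 luteolin from 59.4 to 109 TPM (0.86 ± 0.069), while the channel TPCN2 fell there (-0.81 ± 0.062) and in ES2 siVRK1 (-0.82 ± 0.062). With siVRK1, 6 rose and 1 fell in A2780 (background 13.8% and 27%), and 5 rose and 7 fell in ES2 (26.8% and 28%).

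Among 17 other V-ATPase genes, 13 were tested in each line. In A2780 luteolin 8 rose and 1 fell, against 45.6% and 19.9% of all genes. Under median-of-ratios scaling 4 rose and 3 fell, against 32.5% and 32.5%, and the list's median was -0.0036 relative to that of all genes. In ES2 luteolin 4 rose and 1 fell (background 22.6% and 25.8%). With siVRK1, 5 rose and 2 fell in A2780 (background 13.8% and 27%; 7 and none under median-of-ratios scaling, against 20.7% and 20.4%), and 3 rose and 4 fell in ES2 (26.8% and 28%). ATP6AP1, an accessory subunit, moved in opposite directions with siVRK1: it rose in A2780 from 32.8 ± 2.69 to 67.9 ± 1.69 TPM (1.03 ± 0.061, adjusted p = 1.18e-07) and fell in ES2 from 78.6 ± 1.36 to 38.8 ± 0.660 (adjusted p = 8.1e-09). In each line the siCtrl mean was the one apart, since DMSO stood at 66.8 TPM in A2780 and 46.2 in ES2.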

How the data were processed

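The authors deposited 1 table of TPM per transcript for 24 libraries; per the submitters' processing notes, FastQC and kallisto were used with hg19, and neither versions nor the transcript set are given in the sources used here. RNA was total RNA purified with a column kit, per the labels' protocols. TPM keeps no read depth, so depth is unknown and no counting interval was given. The table has 193845 lines; 1958 repeats were dropped, leaving 191887 transcripts, which sum to the same 1000000.0 TPM in each library. TPM was summed per gene symbol. GENCODE release 29 (GRCh38) was joined by transcript ID for transcript types and gene positions, with 168749 transcripts matched; the deposited table has no coordinates, so no builds were mixed.

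The deposited TPM values were turned here into log2(TPM + 1). Genes at 1 TPM or more in at least 3 libraries of a fit were tested with limma 3.58.1 (limma-trend, R 4.3.3), two-sided; p-values were adjusted by Benjamini-Hochberg across every tested gene and called under 0.05. Within-line comparisons used the 12 libraries of that line, and comparisons between lines all 24. The fit was tried on simulated data with known changes planted in some genes. This was done for A2780 siVRK1, ES2 luteolin and the siRNA difference between lines. The simulated data held no shift of the typical gene and no change of transcript types. The trial therefore does not bear on how calls depend on scaling or on non-coding transcripts.

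The 41 genes and the pathway and marker lists were chosen with earlier results of these data known. Genes were named by role: 10 fixed genes, up to 8 rises and 8 falls per treatment comparison, up to 5 per direction for differences and baseline, and up to 2 per direction from each list. Alternatives were pseudocounts of 0.1 and 5, no filter or 5 TPM, 2 other scalings, removal of mitochondrial mRNAs, robust variance, other sets of libraries in the fit, each library left out, and the replicate number as a block. Sums without transcripts that GENCODE types as non-coding, median-of-ratios scaling over every gene above 0, and the second order of ES2 siVRK1 libraries a and b were added after seeing the data; the set of genes used for the main median-of-ratios scaling was also changed after seeing its results. Promoter windows came from RefSeq (GRCh38.p14).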

Additional observations from a re-analysis of the deposited data

Results flagged for a closer look

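Responses to the VRK1 siRNA that differed between the lines were singled out because the test of the difference itself passed in the limma fit of all 24 libraries. Of 41 genes, 5 were higher in the ES2 response and 11 lower, against 20.7% and 13.2% of all genes. Under median-of-ratios scaling these were 2 and 16, against 15.8% and 19.4%. The log2 differences, ES2 minus A2780, were 0.49 for ULK1, 0.30 for PSAP, 0.28 for ATP6V1A, 0.21 for ATG3 and 0.20 for HEXA. Of these, the calls of ATP6V1A, ATG3 and HEXA were lost under median-of-ratios scaling. Those of ATG3 and HEXA were also lost when any of 8 or 9 libraries was left out. The lower genes follow. Their differences were -1.14 for OPTN, -0.74 for GABARAPL1, -0.45 for CTSL, -0.42 for GLA, -0.37 for ATP6V1D, -0.32 for TFE3 and -0.19 for LAMP1.

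Luteolin responses were singled out in the same way, with 6 genes higher in the ES2 response and 25 lower, against 14.7% and 35.8% of all genes. Under median-of-ratios scaling these were 9 and 15, against 24.3% and 25.4%. Relative to the median of all genes, the log2 differences were 0.58 for CTSD, 0.56 for CTSZ, 0.53 for GABARAP, 0.49 for PSAP and 0.46 for MAP1LC3B. The CTSZ call was lost when any of 8 libraries was left out, and the MAP1LC3B call for any of 7. The lower genes follow. Their differences were -2.04 for GABARAPL1, -0.99 for GLA, -0.97 for WIPI1, -0.78 for SQSTM1, -0.76 for CTSL, -0.72 for TFE3, -0.49 for ATP6V1A, -0.47 for LAMP2 and -0.054 for LAMP1. The LAMP1 call is that of its uncentred difference, and it was lost under median-of-ratios scaling. Groups of 3 libraries were too small for a check of single outlying libraries.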

How the results depend on the processing

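Of 200 calls on named genes, 38 were lost or turned in at least 1 alternative, and 3 turned: CTSA in A2780 luteolin (-0.24) and ATG4B in ES2 luteolin (-0.16), both without non-coding transcripts, and LAMTOR1 in ES2 luteolin (0.011, quantile normalization). Leaving out 1 library ended 21 calls. The cause of these shifts was not tested.

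Counts of the 41 genes moved by over 1.5 times as follows. A2780 siVRK1 higher (5) became 9 under both median-of-ratios scalings and 8 under quantile normalization, and lower (7) became 11 without non-coding transcripts. A2780 luteolin lower (3) became 8 under median-of-ratios scaling and 10 over every gene above 0. For the siRNA difference between lines, higher (5) became 2 under both median-of-ratios scalings and 3 under quantile normalization or no filter. For the luteolin difference, lower (25) became 15 under both median-of-ratios scalings and 16 under quantile normalization. For A2780 luteolin minus siVRK1, higher (26) became 16 under both median-of-ratios scalings; lower (1) became 8 and 9 under them, 3 under quantile normalization, 2 with all 24 libraries in the fit, and 0 under pseudocount 0.1, no filter, the removal of mitochondrial mRNAs or of non-coding transcripts, or the replicate block. For A2780 siCtrl minus DMSO, higher (31) became 20 over every gene above 0, and lower (1) became 4 under both median-of-ratios scalings and quantile normalization and 3 without non-coding transcripts.

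Leaving out 1 library at a time gave 4 to 6 higher and 5 to 8 lower in A2780 siVRK1, 6 to 7 and 14 to 16 in ES2 siVRK1, 26 to 28 and 2 to 3 in A2780 luteolin, and 13 to 14 and 6 to 11 in ES2 luteolin. It gave 3 to 5 higher for the siRNA difference (3 without A2780 siCtrl 1, siVRK1 2, ES2 siCtrl 2, or siVRK1 3 or b), 0 to 2 lower for A2780 luteolin minus siVRK1, and 1 to 2 lower for A2780 siCtrl minus DMSO (2 without siCtrl 2).

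The other values that changed sign belonged to genes that did not pass the test. In A2780 siVRK1, TFE3 was 0.044, 0.068 and 0.040 under median-of-ratios, quantile and the added median-of-ratios scaling, CTSD 0.067, 0.073 and 0.063, and ATP6V1A 0.080, 0.093 and 0.076; ATP6V1A was also 0.0029 without mitochondrial mRNAs and 0.012 without non-coding transcripts, and MCOLN1 -0.15 there. With quantile normalization, LAMP1 was 0.019 in ES2 siVRK1, TFEB -0.24 in A2780 luteolin, and the luteolin difference of TFEB 0.14 (0.017 over every gene above 0). Without non-coding transcripts, CTSD was 0.054 in A2780 luteolin and 0.082 for luteolin minus siVRK1, and ATP6V1A -0.032 in ES2 luteolin. MAP1LC3B was -0.058 and -0.060 for the siRNA difference under the median-of-ratios scalings. The luteolin difference of MCOLN1 was 0.0059 under pseudocount 0.1, and 0.17, 0.14 and 0.19 under the 3 scalings. For A2780 luteolin minus siVRK1, TFEB was -0.098, -0.35 and -0.13 and LAMP2 -0.0095, -0.030 and -0.044 under those scalings. With 1 library left out, A2780 siVRK1 gave -0.071 to 0.32 for TFEB, -0.083 to 0.070 for MCOLN1, -0.068 to 0.012 for CTSD and -0.056 to 0.021 for ATP6V1A. ES2 luteolin gave -0.0021 to 0.10 for ATP6V1A. The siRNA difference gave -0.11 to 0.28 for TFEB, and the luteolin difference -0.43 to 0.044 for TFEB and -0.15 to 0.067 for MCOLN1. A2780 luteolin minus siVRK1 gave -0.10 to 0.40 for TFEB and -0.078 to 0.0017 for CTSD.

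Libraries with the same replicate number did not deviate together, so the numbers were not taken as a pairing; with the replicate block, calls were 6 higher and 7 lower in A2780 siVRK1, 27 and 2 in A2780 luteolin, and 13 and 8 in ES2 luteolin. In ES2 siVRK1 the block gave 7 or 8 higher and 16 lower, by the order given to libraries a and b. The planned sum over protein-coding transcripts could not use the table itself, which gives no transcript types, and GENCODE was used in its place. The absence of read depth limits what can be said of low genes such as TFEB.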
